A study of Mus musculus with 24 samples.

Results

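N6-methyladenosine (m6A) peaks of C57BL/6N mouse blastocysts were compared with those of 8-cell embryos, the interval in which the first cell lineages form. The blastocysts were 2 pools of 100 embryos flushed from the reproductive tract 92 to 94 h after injection of human chorionic gonadotropin (hCG). The 8-cell embryos were 2 pools, of 100 and 51 embryos, flushed 68 to 70 h after hCG. In both stages the females were 8 weeks old, were superovulated with gonadotropins and were mated with males of 8 weeks, and the zona pellucida was removed with acid. The 4 m6A immunoprecipitation (IP) libraries are part of 12 such libraries with a peak list, from oocyte to blastocyst, in a series of 24 samples. Each library came from its own pool of whole embryos, so a peak cannot be placed in one lineage of the blastocyst, and fewer cells of a type and less RNA per cell cannot be told apart. Total RNA was freed of ribosomal RNA, sheared and precipitated with an m6A antibody, and each list holds peaks of bound RNA over the input RNA of the same pool.

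m6A is written on messenger RNA by the Mettl3-Mettl14 complex, largely around stop codons and in 3' ends and long internal exons, and is read by proteins such as Ythdf2 that change the stability or translation of the transcript. The 8-cell embryo compacts, polarises and begins to separate outer from inner cells. The blastocyst has a trophectoderm epithelium, which forms placenta, around a fluid cavity, and an inner cell mass with epiblast and primitive endoderm precursors.

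A gene was called marked in a library when a peak shared at least 1 bp with its body, from annotated start to end and introns included. A gene or region was called gained at the blastocyst when both blastocyst libraries and neither 8-cell library marked it, and lost when both 8-cell libraries and neither blastocyst library did. These calls are counts with no test, since 2 libraries against 2 cannot reach a two-sided exact permutation p below 0.333. Inputs and reads were not analysed here, so an unmethylated transcript, a transcript that was absent and a peak below the detection limit cannot be told apart.

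The blastocyst lists held 9133 peaks (replicate 1) and 7946 peaks (replicate 2), and the 8-cell lists 8803 and 9463. The blastocyst replicates stood apart from each other. Their Jaccard index, the base pairs in both lists divided by those in either, was 0.368, below the 0.391 and 0.435 of blastocyst replicate 1 with the 8-cell libraries. Blastocyst replicate 2 overlapped the 8-cell libraries by 0.291 and 0.301, and the 8-cell replicates shared 0.484. Median peak width was 305 and 226 bp in blastocysts, against 261 and 287 bp in 8-cell embryos. Protein-coding genes marked per library numbered 5204 and 4549 in blastocysts, against 4624 and 4986 in 8-cell embryos, averaging 4876.5 ± 463 and 4805 ± 256 (SD, n = 2 each, exact permutation p = 1). Peaks outside annotated genes made up 5.43% ± 2.38 of blastocyst lists and 7.91% ± 0.799 of 8-cell lists (SD, n = 2 each, exact permutation p = 0.333, adjusted over 7 measures 0.777). None of the 7 measures compared had an adjusted p below 0.777.

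Of 21887 protein-coding genes in the annotation, 474 were gained at the blastocyst (2.17%) and 425 were lost (1.94%), while 2764 were marked in all 4 libraries (12.6%). Of the 7261 genes marked in at least 1 of the 4 libraries these are 6.53% gained, 5.85% lost and 38.1% in all 4. Crossed pairs, 1 blastocyst with 1 8-cell library against the other two, marked 69 to 219 genes. For peaks, the 4 lists were merged into 16338 regions, of which 781 were gained (4.78%), 1192 lost (7.3%) and 3267 present in all 4 libraries (20%). The crossed pairs held 135 to 597 regions. The pair sharing most was blastocyst replicate 1 with 8-cell replicate 2, with 219 genes (1%) and 597 regions (3.65%). Blastocyst replicate 1 with 8-cell replicate 1 held 125 genes (0.571%) and 300 regions (1.84%). Blastocyst replicate 2 held 108 genes (0.493%) and 163 regions (0.998%) with 8-cell replicate 2, and 69 genes (0.315%) and 135 regions (0.826%) with 8-cell replicate 1. Both stage pairs held more genes and more regions than each of the 4 crossed pairs. Requiring only the remaining library of a stage loosens the call. Gained genes were then 1015 without blastocyst replicate 1, 1038 without blastocyst replicate 2 and 785 without 8-cell replicate 2. Lost genes were 1027 without blastocyst replicate 1, 845 without 8-cell replicate 1 and 782 without 8-cell replicate 2. Gained regions were 3102, 2666 and 1271 without blastocyst replicate 1, blastocyst replicate 2 and 8-cell replicate 2, in that order, and lost regions were 2482, 3134 and 3013 without blastocyst replicate 1, 8-cell replicate 1 and 8-cell replicate 2.

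**Figure D1:**
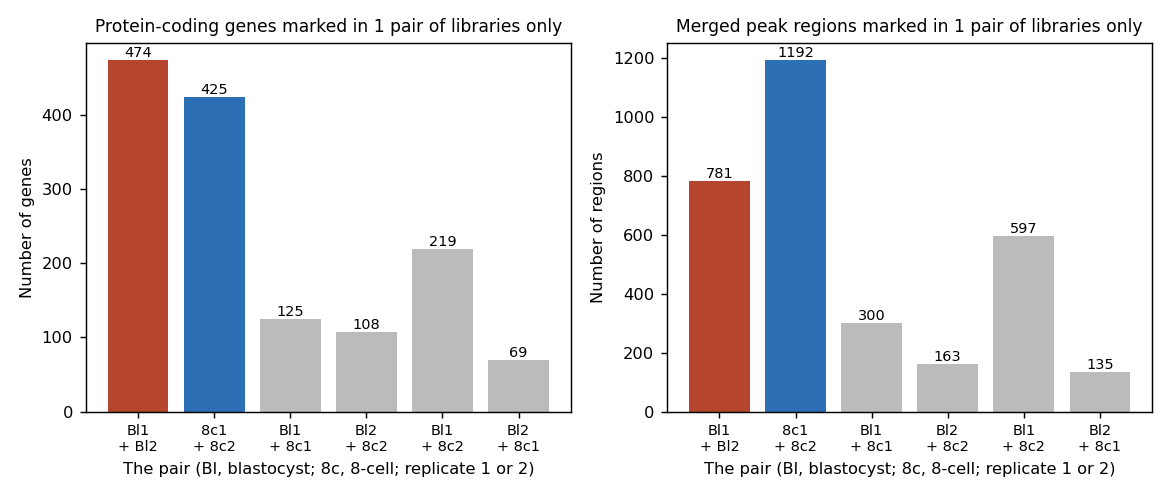
Number of protein-coding genes (left) and merged peak regions (right) marked in both libraries of a pair and in neither of the other 2. The blastocyst pair (474 genes, 781 regions) and the 8-cell pair (425 genes, 1192 regions) stand above the 4 crossed pairs in grey (69 to 219 genes, 135 to 597 regions).

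The 4 stretches of sequence below show what gained and lost regions cover at a gene start. Of the 781 gained regions 13 (1.66%), and of the 1192 lost regions 32 (2.68%), overlapped a window from 250 bases before to 50 bases after an annotated start. The 2 strongest of each, by mean −log10 q-value, with at least 100 bases of the window of a single named gene inside the region, are printed on the gene's strand from the RefSeq start windows of build GRCm38.p6. Each stops at the region's edge, or at most 250 bases upstream and 30 bases downstream of the start. Capitals mark the letters GGAC, the core of the consensus in which m6A is written.

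Bmyc (gained, chr2:25706798-25706908, plus strand): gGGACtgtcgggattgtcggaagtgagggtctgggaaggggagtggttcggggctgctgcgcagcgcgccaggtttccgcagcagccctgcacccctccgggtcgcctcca

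Sox2 (gained, chr3:34649899-34650024, plus strand): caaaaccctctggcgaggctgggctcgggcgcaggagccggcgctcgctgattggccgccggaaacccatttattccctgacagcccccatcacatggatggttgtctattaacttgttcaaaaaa

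Trim39 (lost, chr17:36271975-36272254, minus strand): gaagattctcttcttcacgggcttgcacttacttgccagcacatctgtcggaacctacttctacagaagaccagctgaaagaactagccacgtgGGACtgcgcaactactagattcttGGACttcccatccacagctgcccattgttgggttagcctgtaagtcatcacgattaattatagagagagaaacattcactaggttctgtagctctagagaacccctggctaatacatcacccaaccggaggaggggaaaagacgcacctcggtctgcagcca

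Syncrip (lost, chr9:88482368-88482599, minus strand): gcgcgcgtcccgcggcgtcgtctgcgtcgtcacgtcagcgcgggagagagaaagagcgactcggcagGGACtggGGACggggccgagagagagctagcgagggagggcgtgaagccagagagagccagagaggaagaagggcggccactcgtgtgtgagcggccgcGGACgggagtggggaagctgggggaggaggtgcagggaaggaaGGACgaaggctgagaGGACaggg

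GGAC occurred 1 time in the Bmyc stretch, 0 times in that of Sox2, 2 times in that of Trim39 and 5 times in that of Syncrip. On the opposite strand it occurred 1 time in the Syncrip stretch and 0 times in the other 3. Among all 32851 start windows of 300 bases, 65.6% held GGAC on the gene's strand and 87.7% on either strand, so a match is common. The peak lists carry no strand, and bases before the annotated start can belong to a longer transcript of the gene or to another transcript.

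Along gene bodies, gained, lost and shared regions all lay mostly towards the end, where m6A is usually dense. In genes longer than 10000 bp with a known strand, the median relative position, from 0% at the start to 100% at the end, was 86.4% for 491 gained regions, 83.3% for 578 lost regions and 88.7% for 1985 regions in all 4 libraries. The last 10% of the gene length held 44.2% of gained, 41.3% of lost and 47.1% of shared regions. The first 10% held 5.09% of gained, 9.69% of lost and 4.58% of shared regions. That lost share lay inside the 2.8% to 11% of the 4 crossed pairs. Within 2000 bp of the gene end lay 29.1% of gained and 29.2% of lost regions, and in genes longer than 20000 bp the values were 26.7% and 23.2%.

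**Figure D2:**
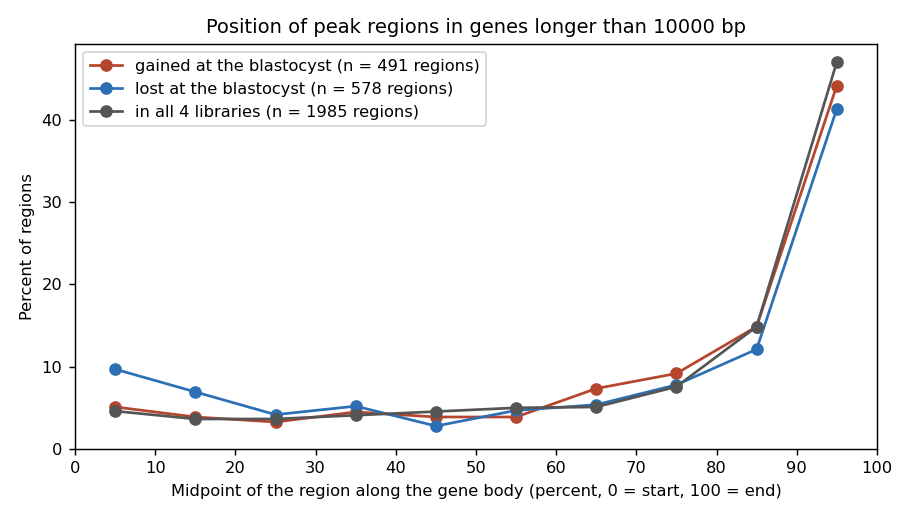
Percent of regions (y axis) in each bin of 10% of the gene body (x axis, percent of gene length from start to end) for genes longer than 10000 bp. Gained, lost and shared regions all peak in the last bin (44.2%, 41.3% and 47.1%), and the first bin holds 5.09%, 9.69% and 4.58%.

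A larger share of the lost than of the gained regions lay outside annotated genes. Of the 781 gained regions 5.63% (44) had their midpoint outside annotated genes and 90% in protein-coding genes. Of the 1192 lost regions 17.2% (205) were outside genes and 75.2% in protein-coding genes. The crossed pairs ranged from 2.67% to 13.3% outside genes, the highest being blastocyst replicate 2 with 8-cell replicate 1. Regions of all 4 libraries were 2.91% outside genes. Gained regions had a median width of 376 bp, lost regions 321 bp and shared regions 587 bp.

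Part of the gained and lost regions fell in genes marked in all 4 libraries, 2437 of which held a region present in all 4. Of the 703 gained regions in protein-coding genes, 418 were in gained genes and 197 in genes marked in all 4 libraries. Of the 896 lost regions in such genes, 391 were in lost genes and 324 in genes marked in all 4. Among the 2764 genes marked in all 4 libraries, 176 held a gained region, 284 a lost region and 20 both. In genes longer than 10000 bp, gained regions lay at a median of 90.7% of the length in gained genes and at 73.3% in genes marked in all 4 libraries. Lost regions lay at 90.1% in lost genes and at 77.5% in genes marked in all 4. Regions that were neither gained, lost nor in all 4 libraries lay at 75.5% in genes marked in all 4. Such regions lay at 87.2% in gained genes and at 80.1% in lost genes. The lower position in genes marked in all 4 was therefore not particular to gained or lost regions. These positions describe the regions, which share genes, and were not tested.

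Sox2, the HMG-box factor of the inner cell mass, was marked in all 4 libraries. Its best peak had a −log10 q-value of 163 and 145 in blastocyst replicates 1 and 2, against 4.66 and 5.03 in 8-cell replicates 1 and 2. Its fold enrichment was 13 and 23.9 in blastocysts, against 5.14 and 4.01 in 8-cell embryos. The groups did not overlap in either value, but these values are the authors' own for each list and move with depth, so no change in level is read from them. The gained region of Sox2 (the stretch printed above, a region of 450 bp) had its midpoint 129 bp after the start and −log10 q-values of 95.7 and 52.5. Fbxw7, a substrate-recognition subunit of a ubiquitin ligase, held 3 gained regions and 1 lost one, the strongest gained one 1601 bp before the gene end with −log10 q-values of 96.1 and 38.1. Qk, an RNA-binding protein, gained a region far inside the gene, 67616 bp before its end (−log10 q-values of 123 and 91.9), and Qk held 2 gained regions and 1 lost one. Fbxw7 and Qk held 0 regions present in all 4 libraries. Hsp90aa1, a cytosolic chaperone, gained a region at 303 and 108 and held 1 lost region and 2 present in all 4 libraries. Mtdh gained one at 63 and 44.6, beside 1 present in all 4.

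Among lost regions in genes marked in all 4 libraries, that of Timd2 was strongest, with −log10 q-values of 148 and 153 in the 8-cell replicates, 2082 bp before the gene end. Ncl, encoding the nucleolar protein nucleolin, lost a region 2747 bp after its start (116 and 158). Ube2l3, a ubiquitin-conjugating enzyme, lost one 8205 bp before its end (153 and 130). Lrr1 lost one 437 bp before its end (92.3 and 165) and Shoc1 lost one of 801 bp (75.7 and 98.8). None of these 5 genes had a gained region.

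Gained genes were ranked by their best peak within each blastocyst list. B3gnt5, a glycosyltransferase that starts lacto-series glycolipids, had the highest rank, with −log10 q-values of 527 and 266 in blastocyst replicates 1 and 2 and no peak in the 8-cell libraries. Its peak of replicate 1 lay on chromosome 16 at 19768684 to 19770485, 3175 bp before the gene end, at a fold of 14.1. Dppa1 had 491 and 206, with the peak on chromosome 11 at 46608490 to 46608804. Id2, an inhibitor of basic helix-loop-helix factors and a marker of the early trophectoderm, had 326 and 134 at folds of 4.28 and 4.03, on chromosome 12 at 25094207 to 25094681 and 645 bp before its end. Tfap2a, a transcription factor of the AP-2 family, had 280 and 139, on chromosome 13 at 40716538 to 40717382. All 4 genes had their higher value in replicate 1, the list with the higher median (18 and 10.7 over all peaks of replicates 1 and 2). The other 11 of the 15 highest-ranked gained genes were F2rl1 (a protease-activated receptor), Vgll3 (a cofactor of TEAD factors), Bmyc (a Myc family member), Bcl9l (a coactivator of beta-catenin), Nynrin, Rin3 (an exchange factor of Rab5 GTPases), Katnal2, Wnt7b (a Wnt ligand), Ptgfrn, C1galt1 (the core O-glycan galactosyltransferase) and Tesk1 (a kinase). Their −log10 q-values ran from 42.9 (Ptgfrn, replicate 2) to 233 (Vgll3, replicate 1). Of the 15, Rin3 had been marked in 6 of the 8 earlier libraries (oocyte to 2-cell), and B3gnt5, F2rl1, Vgll3, Bmyc, Bcl9l, Nynrin and Wnt7b in none.

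**Figure D3:**
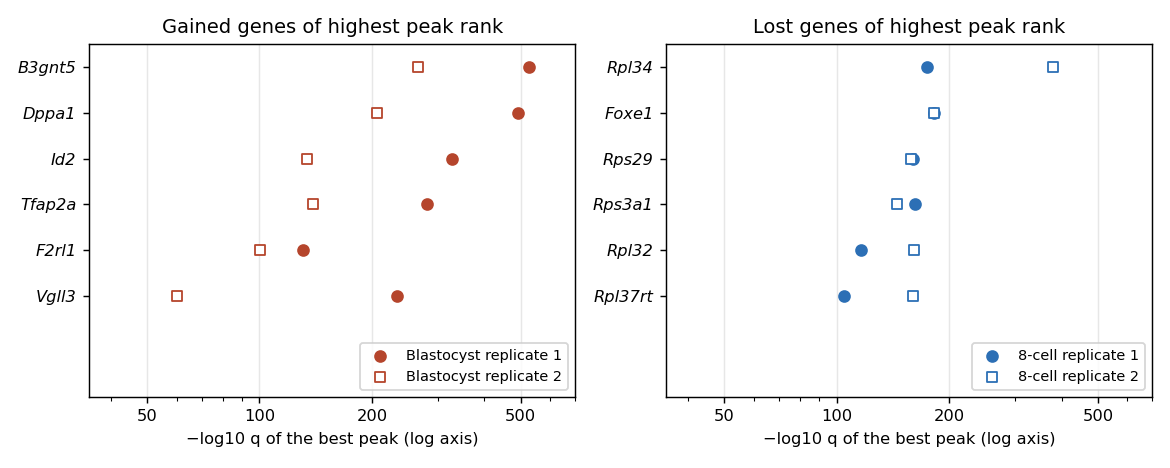
−log10 q-value (log axis) of the best peak over each of the 6 highest-ranked gained genes in the 2 blastocyst libraries (left) and of the 6 highest-ranked lost genes in the 2 8-cell libraries (right); none of these genes has a peak in the other stage. B3gnt5 leads the gained genes (527 and 266) and Rpl34 the lost genes (174 and 379), and all lost genes shown other than Foxe1 encode ribosomal proteins or a close paralog.

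Of the 15 highest-ranked lost genes, 8 encoded proteins of the cytosolic ribosome or a close paralog of one, led by Rpl34, Rps29, Rps3a1, Rpl32 and Rpl37rt. The others included 2 forkhead factors. Foxe1, a forkhead factor known from thyroid, had −log10 q-values of 182 and 183 in 8-cell replicates 1 and 2, on chromosome 4 at 46345133 to 46345744. Foxa1, a pioneer factor of endoderm, had 55.3 and 169, on chromosome 12 at 57541935 to 57543128. Btbd18, which in mouse testis promotes transcription of piRNA precursors, had 109 and 89.4. Sem1, a small subunit of the proteasome lid, had 68.3 and 104, and Tmem50b had 48.6 and 108. Sp110 and Sp140, nuclear body proteins, overlap each other on chromosome 1 and share peaks, so their values of 97.9 and 75.6 (Sp110) and 63 and 75.6 (Sp140) cannot be assigned to one gene. Sp110 had been marked in all 8 earlier libraries.

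Read by function, 32 gene lists covered lineages, signalling and general cell functions. Lists were set beside 2.17% gained and 1.94% lost over all protein-coding genes, and they share genes such as Id2. Most lists were written by hand and do not hold every gene of their function. The lists with the highest percent gained were the trophectoderm list and the list of TGF-beta, BMP, Wnt and Notch signalling, and that with the highest percent lost was the ribosomal list.

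**Figure D4:**
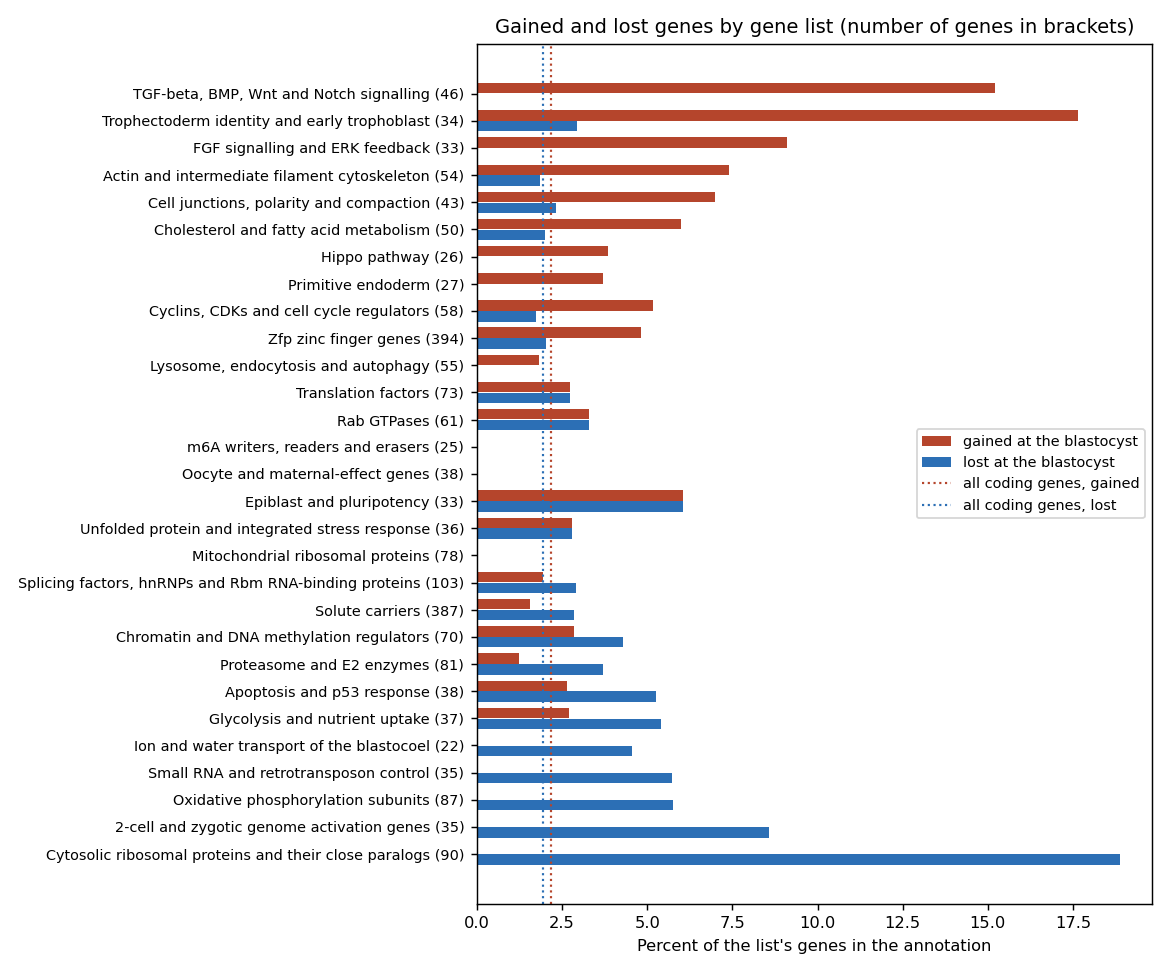
Percent of each list's annotated genes (x axis, lists of markers of other cells left out) that were gained or lost at the blastocyst, with the number of genes in brackets; dotted lines show all protein-coding genes (2.17% gained, 1.94% lost). The signalling and trophectoderm lists stand at the gained end (7 of 46 and 6 of 34) and the ribosomal list at the lost end (17 of 90).

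More genes of the trophectoderm list carried a peak in each blastocyst library than in each 8-cell library. Of 34 listed genes, 23 and 18 were marked in blastocyst replicates 1 and 2, against 13 and 13 in the 8-cell replicates. Gained were 6 (17.6%, against 2.17% of all genes), led by Dppa1, Id2, Tfap2a, Gata2 and Klf6, while Hand1 was lost, and 12 were marked in all 4 libraries. Each of the 4 crossed pairs held 0 genes of this list. Of the 24 listed genes marked in at least 1 of the 4 libraries 25% were gained, against 6.53% of all genes so marked. Gata2, a GATA factor of trophoblast, had −log10 q-values of 115 and 17.4, with its peak 1290 bp before the gene end. Klf6, a zinc finger factor, had 60.6 and 52.2. Hand1, a factor of trophoblast giant cells, had 36.7 and 21.8 in the 8-cell replicates and no peak in either blastocyst list. The gained count was 11 without blastocyst replicate 2 and 6 without each of the other libraries. Tfap2c, Sfn and Klf5 were the strongest of those in all 4 libraries. Tfap2c, the AP-2 factor needed for trophectoderm, had −log10 q-values of 418 and 148 in blastocysts, against 354 and 525 in 8-cell embryos, which overlap.

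The epiblast and primitive endoderm lists held few calls in number. Of the epiblast list 6.06% were gained and 6.06% lost, against 2.17% and 1.94% of all genes, each share resting on 2 genes. Of its genes marked in at least 1 of the 4 libraries the shares were 8.33% each, against 6.53% and 5.85%. Of 33 epiblast and pluripotency genes, 18 and 16 were marked in blastocysts, against 17 and 17 in 8-cell embryos. Gained were Mycn (33.6 and 13.4) and Il6st, the shared receptor chain gp130 of the LIF pathway (33.8 and 11.9). Lost were Klf17 (30.2 and 29.3 in the 8-cell replicates), a zinc finger factor marked in 7 of the 8 earlier libraries, and Tfcp2l1 (10.1 and 31.6), a factor of naive pluripotency. Nr5a2, Klf2 and Tbx3 were the strongest of 11 marked in all 4. Of 27 primitive endoderm genes, 9 and 13 were marked in blastocysts, against 9 and 10 in 8-cell embryos. Lama1, a laminin chain of basement membrane, was gained (28.7 and 208), which is 3.7% of the list, and 0 were lost. The Lama1 peak of blastocyst replicate 2 had a fold of 67.9. Gata6, Fgfr2 and Lrp2 led the 7 in all 4 libraries. Lrp2 had 354 and 98.6 in blastocysts, against 8.4 and 21.8 in 8-cell embryos, while Gata6 had 155 and 37 against 145 and 352. As for Sox2, these values move with depth, so no change in level is read from them.

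In signalling, ligands, receptors and feedback inhibitors were among both the gained and the lost genes. Of 46 genes of TGF-beta, BMP, Wnt and Notch signalling, 27 and 21 were marked in blastocysts, against 16 and 20 in 8-cell embryos. Gained were 7 (15.2%), and 0 of the listed genes were lost. The crossed pairs held 0 or 1. Of the 32 listed genes marked in at least 1 of the 4 libraries 21.9% were gained, against 6.53% of all genes so marked. Among the gained genes were the Wnt ligands Wnt7b (82.6 and 84.7) and Wnt6 (34.3 and 13.3). Lrp5, a Wnt co-receptor, had 49.4 and 18.1. Axin2, a feedback inhibitor of Wnt signalling, had 38.1 and 25.9, 5938 bp after the gene start. The remaining gained genes were Id2, a target of BMP signalling, and, outside the naming rule, the receptor Acvr1b and the mediator Smad5. The list leaves out genes of these pathways that were called in both directions, here chosen after values were seen. Lost among them were the Wnt receptor gene Fzd3 (7.59 and 15.8 in the 8-cell replicates), the Notch ligand gene Jag2 (10.1 and 33.2), Smurf2, a ubiquitin ligase acting on Smad proteins (25.6 and 16.9), and Frat2, an activator of Wnt signalling (20.4 and 16.6). Gained among them were the Wnt ligand gene Wnt3a (58.2 and 25.7 in the blastocyst replicates) and Bcl9l. The list's share is therefore no measure of the pathways as a whole. With a library left out the list's gained count was 7 to 10, and the lost count was 3 without blastocyst replicate 1, 3 without 8-cell replicate 1 and 1 without 8-cell replicate 2. With only peaks whose midpoint lay within 2000 bp of a gene end, 4 were gained. With equally long lists 1 gene was lost, and with a −log10 q-value of at least 5, 2.

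Of 33 FGF and ERK genes, 22 and 19 were marked in blastocysts, against 16 and 16 in 8-cell embryos. Dusp6, a phosphatase that switches off ERK, was gained with 59.4 and 31 and had 3 and 4 peaks per library, the best near the gene start (135 bp). Spry1, a feedback inhibitor of receptor tyrosine kinases marked in all 8 earlier libraries, had 15.7 and 1.91, the second close to the lists' limit. Fgf10, a ligand, had 26.1 and 19.2. The list lost 0 genes, but it does not hold every gene of the pathway. Outside it, and chosen after values were seen, the ligand gene Fgf3 (4.56 and 15.6 in the 8-cell replicates) and Spred3, of a family of inhibitors of ERK signalling (31 and 20), were lost. In the list Spry2, Frs2 and Myc led the 11 in all 4 libraries. Of 26 Hippo pathway genes Limd1, an inhibitor of the Lats kinases, was gained (17.7 and 8.53) and 0 were lost, with Lats2, Tead4 and Yap1 leading 10 in all 4 libraries.

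Among 43 genes of junctions, polarity and compaction, 33 and 24 were marked in blastocysts, against 23 and 25 in 8-cell embryos. Gained were Gjb5, a gap junction connexin (52.2 and 38), and the desmosomal cadherins Dsg2 (84.4 and 16.4) and Dsc2 (24.7 and 5.37). Llgl1, a basolateral polarity protein, was lost (14 and 34.4). F11r, Gja1 and Cldn4 led 15 marked in all 4 libraries. F11r, a tight junction adhesion molecule, had 643 and 300 in blastocysts, against 622 and 971 in 8-cell embryos. Crossed pairs held 0 to 2 genes of this list. Of 54 genes of the actin and intermediate filament cytoskeleton, 4 were gained: Wasl, an activator of Arp2/3 (23.2 and 37.1), Rhou (13.8 and 27.5), Cdc42ep1 (15.5 and 12.7) and Myo1e (11.4 and 4.26). Tmsb10, an actin-sequestering thymosin, was lost (6.79 and 8.02). Of 22 genes of ion and water transport into the cavity, 0 were gained, and Aqp11, an aquaporin, was lost (5.44 and 7.62).

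Ribosomal protein genes had the highest lost count of the 32 lists. Of 90 genes of cytosolic ribosomal proteins and their close paralogs, 21 and 15 were marked in blastocyst replicates 1 and 2, against 46 and 46 in the 8-cell replicates. In percent these are 23.3% and 16.7% in blastocysts, against 51.1% and 51.1% in 8-cell embryos, while all protein-coding genes were marked at 23.8% and 20.8% against 21.1% and 22.8%. The groups did not overlap for the ribosomal list and overlapped for all genes. Absence of overlap was not particular to this list. Counts of marked genes also did not overlap for translation factors (35 and 31 in blastocysts, against 36 and 37) and oocyte genes (7 and 4 against 2 and 3), among others. Lost were 17 (18.9%, against 1.94% of all genes), 0 were gained, 14 were marked in all 4 libraries, and each crossed pair held 0. Of the 53 listed genes marked in at least 1 of the 4 libraries 32.1% were lost, against 5.85% of all genes so marked. Most of the list is short, and of marked genes under 10000 bp outside it 7.51% were lost. Leaving out a library gave 18 to 24 lost and 0 gained. With equally long lists 16 of the 17 were lost again, as with a −log10 q-value of at least 5. Before the 8-cell stage, 2-cell replicate 2 marked 48 but 2-cell replicate 1 only 21, and oocyte and zygote libraries marked 7 to 13. Ribosomal protein genes have many near-identical processed pseudogenes, and the sources used here do not give how the authors assigned reads that map to several places.

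Lost ribosomal genes came from both subunits, among them Rpl13, Rpl32, Rpl34, Rpl36, Rpl37 and Rpl37a of the large subunit and Rps3, Rps3a1, Rps9, Rps20, Rps24 and Rps29 of the small subunit. Rpl34 had the highest −log10 q-values, 174 and 379 in 8-cell replicates 1 and 2, at folds of 4.47 and 4.54, with its peak on chromosome 3 at 130726905 to 130727135, 193 bp before the gene end. Rps3a1 had 163 and 145, on chromosome 3 at 86138060 to 86138265 and 223 bp before the end. Rpl32 had 116 and 161 at folds of 3.39 and 2.87. Rps28 was the weakest, with 1.82 and 4.78. Folds were mostly low: Rps28 had 1.48 and 1.44, while Rpl37rt, a paralog of Rpl37, had 10.2 and 10.8. In the 12 lost genes with a known strand the lost region lay 158 to 1266 bp before the gene end (median 289.5 bp), in each case in the last 30% of the gene. In the other 5 the best peak lay 147 to 1009 bp from the nearer end. The 14 genes marked in all 4 libraries were led by Rpl36al, Rpl29 and Rpl41. Rpl36al had −log10 q-values of 449 and 124 in blastocysts, against 454 and 538 in 8-cell embryos. Blastocyst replicate 1 lay close to 8-cell replicate 1, and no change in level is read from these values.

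**Figure D5:**
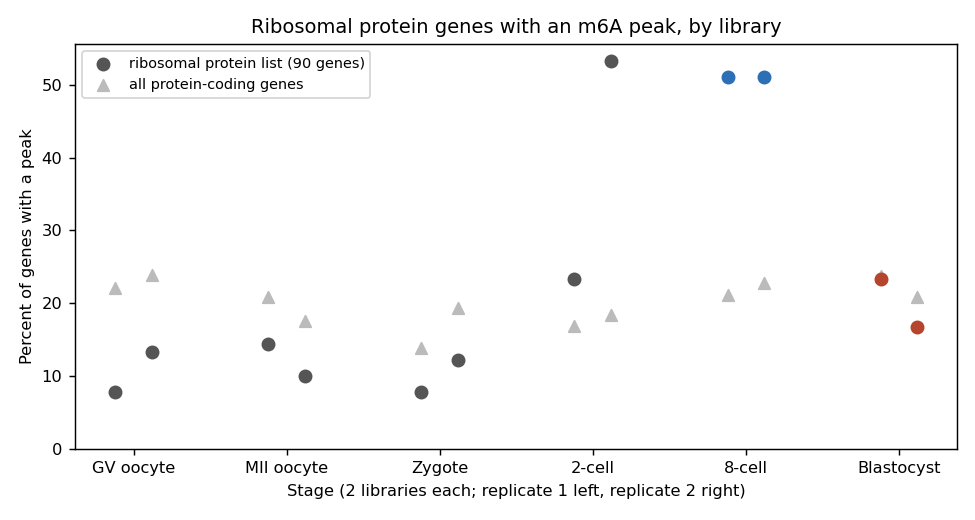
Percent of 90 ribosomal protein genes (circles) and of all protein-coding genes (triangles) with a peak, by library in stage order. The 8-cell libraries (51.1% each) and 2-cell replicate 2 (53.3%) stand above the blastocyst libraries (23.3% and 16.7%), while all genes stay between 13.8% and 23.9%.

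Of 78 mitochondrial ribosomal proteins 0 were gained, 0 were lost and 27 were marked in all 4 libraries. They were marked in 49 and 29 cases in blastocysts, against 42 and 48 in 8-cell embryos. The crossed pair of blastocyst replicate 1 with 8-cell replicate 2 held 6 of them, so a split that is not by stage reached such a count. Of 87 listed subunits of oxidative phosphorylation 5 were lost (5.75%, against 1.94% of all genes) and 0 gained. Of the 30 marked in at least 1 of the 4 libraries 16.7% were lost, against 5.85% of all genes so marked. The lost genes were Ndufc1 (30.7 and 30.1), Ndufs5 (7.16 and 44.1), Uqcr10 (22.2 and 19.6), Uqcrfs1 (24.5 and 8.9) and Atp5l (13.6 and 15.1). The list does not hold every such gene. Outside it, and chosen after values were seen, the subunit gene Ndufab1 was gained (6.18 and 7.46 in the blastocyst replicates). Of 73 translation factors 2 were gained, Eif2s1 (7.61 and 22) and Eif3j2, and 2 lost, Eif1 (8.15 and 23.3) and Eif4a3l1. The crossed pair of blastocyst replicate 2 with 8-cell replicate 2 held 3 translation factors. Of 81 proteasome and E2 enzyme genes Ube2q2 was gained, and Psmd8 (36.7 and 37.5), Ube2e2 and Psme4 were lost, Psme4 with a peak that also touches Erlec1. The lost proteasome gene Sem1, named above (68.3 and 104), lies outside this list.

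Of 35 genes of the 2-cell stage and of genome activation, 14 and 13 were marked in blastocysts, against 19 and 20 in 8-cell embryos, and 0 were gained. Lost were Sp110, which shares peaks with Sp140, Tdpoz4 (17.1 and 42.4) and Zscan4d (4.56 and 2.68), a member of the Zscan4 cluster of near-identical genes, so that its reads may belong to a neighbour. Pramel6, Pramel7 and Rpl10l led 13 marked in all 4 libraries. Of 38 listed oocyte genes 0 were gained and 0 lost, but the list does not hold every oocyte gene. Outside it, and chosen after values were seen, Nlrp4c (23.6 and 33.3) and Nlrp4e (21.3 and 6.25) of the Nlrp family were gained. Nlrp12 of the same family was lost (8.65 and 2.49 in the 8-cell replicates). Of 25 writers, readers and erasers of m6A 0 were gained or lost and 12 were marked in all 4 libraries. Wtap, a subunit of the writer complex, had 513 and 313 in blastocysts, against 213 and 394 in 8-cell embryos, and the readers Ythdf2 and Ythdf3 were next.

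Among 70 chromatin and DNA methylation regulators, 2 were gained and 3 lost. Gained were Kmt2a, a methyltransferase of histone H3 lysine (50.2 and 19.3, with 8 and 3 peaks), and Zfp57, which keeps imprints methylated (44.2 and 9.3). Lost were the Polycomb subunits Ring1 (12.8 and 4.02) and Pcgf6 (16.6 and 18.5) and the demethylase Kdm4c (8.6 and 13.6), while Tet2, Jarid2 and Suz12 led 38 in all 4 libraries. Of 394 genes named Zfp, mostly zinc finger proteins, 222 and 199 were marked in blastocysts, against 177 and 195 in 8-cell embryos, with 19 gained (4.82%) and 8 lost (2.03%). Of the 262 Zfp genes marked in at least 1 of the 4 libraries, 7.25% were gained and 3.05% lost, against 6.53% and 5.85% of all genes so marked, so the gained share lay near that background. Zfp595 and Zfp953 overlap and share a peak (52.2 in replicate 1). The gained count was 32, 42 and 38 without blastocyst replicate 1, blastocyst replicate 2 and 8-cell replicate 2, the lost count was 24, 13 and 15 without blastocyst replicate 1, 8-cell replicate 1 and 8-cell replicate 2, and 11 were gained with midpoints near a gene end.

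In metabolism, Elovl1 (56.1 and 35), Pmvk (21.9 and 24.5) and Apoe (6.43 and 3.91) were gained among 50 genes of cholesterol and fatty acid metabolism, and Sc5d was lost. Among 37 genes of glycolysis and nutrient uptake, Tfrc, the transferrin receptor (24.1 and 28.1), and Pfkfb3, a regulator of glycolytic flux (32.2 and 7.62), were lost. Pfkp was gained under a peak that also touches Pitrm1. Of 387 solute carriers 6 were gained and 11 lost, led by Slc35c1 and Slc22a23 (gained) and Slc19a3 and Slc5a11 (lost). In the cell cycle list of 58, Ccnc, Rbl2 and Cdkn2c were gained and Gmnn, the inhibitor of replication licensing geminin (23.2 and 19.1), was lost, with peaks of Ccnc that also touch Tstd3 and of Rbl2 that touch Aktip. The crossed pair of blastocyst replicate 1 with 8-cell replicate 2 also held 3 genes of the cell cycle list. In the apoptosis and p53 list of 38, Gadd45g (15.5 and 14.4) was gained, and the BH3-only genes Bid (9.27 and 38.3) and Bad (2.06 and 12.8) were lost. Of its 23 genes marked in at least 1 of the 4 libraries 4.35% were gained and 8.7% lost. These shares lay near the 6.53% and 5.85% of all genes so marked. Of 35 genes of small RNA and retrotransposon control, Ago4 (8.63 and 27.2) and Pphln1 (23.8 and 15.3) were lost and 0 were gained. The lists of splicing factors (2 gained, 3 lost of 103), Rab GTPases (2 and 2 of 61), the stress response (1 and 1 of 36) and lysosome and autophagy (1 and 0 of 55) held few calls. Crossed pairs reached like counts, up to 3 splicing, 2 Rab, 2 stress and 1 lysosome and autophagy genes.

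Markers of other cells that a flushed pool could carry were almost without peaks. Of 16 genes of cumulus and granulosa cells, 0 and 1 were marked in blastocysts, against 1 and 1 in 8-cell embryos. Of 14 genes of the oviduct and uterine epithelium the counts were 2 and 1 against 1 and 1, and of 12 blood genes 0 in each library. None of these marker genes was gained or lost.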

How the data were processed

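The submitters' processing notes name the mm10 build and, with no settings, MACS2 2.1.2, bedtools 2.28.0, deepTools 3.2.0, SAMtools 1.9, HISAT2 2.1.0, cutadapt 1.8.1 and FastQC 0.11.8. Peak names in the deposited lists show that the authors called peaks in each IP library separately. For each summit the deposited lists give the authors' score, in 99.998% of lines 10 times the −log10 q-value rounded down, the authors' fold enrichment (a ratio), and the authors' −log10 q-value and −log10 p-value. The lists hold no read counts, so the depth of the libraries is unknown.

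Lines of one interval were joined into 1 peak that kept the best q-value, and overlapping peaks of the 4 lists were merged into regions. Genes came from a RefSeq table of GRCm38.p6 without exons, and the strand of 17492 of 21887 protein-coding genes from RefSeq start windows. Positions use midpoints of regions in 1 protein-coding gene only. Single values per library were compared with a two-sided exact permutation test. Calls were tested on simulated peaks.

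The members and lists were chosen with earlier results of these data known. Kinases of ribosomal protein S6 and Rps19bp1 were dropped from the ribosomal list, and the rule for printed sequences chosen, after values were seen. Genes named, clone names left out, are the 15 gained and 15 lost with the highest mean percentile of the best peak by −log10 q-value, up to 5 gained, 5 lost and 3 shared per list, and genes of 5 gained and 5 lost regions that are marked in all 4 libraries. Acvr1b, Smad5, Fgf3, Spred3, Fzd3, Jag2, Smurf2, Frat2, Wnt3a, Ndufab1, Nlrp4c, Nlrp4e and Nlrp12 were named after their values were seen. Some items are not reported here. Alternatives were equally long lists, a −log10 q-value of at least 5, each library left out, overlap of at least 50% of the shorter peak, peak midpoints in the gene body or within 2000 bp of its ends, genes under 50000 bp, and, for positions, a window of 1000 bp and genes longer than 20000 bp. Python 3.11.15, pandas 2.3.3, numpy 2.4.6 and matplotlib 3.10.9 were used.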

Additional observations from a re-analysis of the deposited data

How the results depend on the processing

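Gained genes numbered 270 with peak midpoints within 2000 bp of a gene end and 306 among genes under 50000 bp, against 474 with all peaks and genes. Lost genes numbered 331 and 314 in these settings, against 425, so in both more genes were lost than gained. With midpoints near a gene end 232 of the 474 gained and 240 of the 425 lost genes were called again. With each list held to its best 7946 peaks, 522 were gained and 382 lost, of which 413 and 333 were among the 474 and 425. With a −log10 q-value of at least 5 there were 462 and 403, of which 369 and 332 were among them. Leaving out 1 library gave 619 to 1038 gained and 562 to 1027 lost genes, and 1023 to 3102 gained and 1415 to 3134 lost regions, since one library then suffices for its stage. Overlap of at least 50% of the shorter peak gave 788 gained and 1267 lost regions, counted as peaks of replicate 1. The share of regions within 2000 bp of the gene end, gained minus lost, was −0.115 percentage points in genes longer than 10000 bp and 3.51 in genes longer than 20000 bp, a change of sign whose cause was not tested.

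The replicate numbers are not stated to pair pools, so they name samples only. With the replicate number as a block, the exact sign-flip p, which cannot go below 0.5 with 2 pairs, was 1 for the difference in peaks per library, blastocyst minus 8-cell (−593.5), and for width, share near the gene end and genes marked. It was 0.5 for the shares outside genes (−2.48 points), in protein-coding genes (3.2 points) and near the gene start. Depth is unknown, so the detection limit of each list is unknown.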

Other observations

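Of the 474 genes gained at the blastocyst, 181 (38.2%) carried a peak in both germinal vesicle (GV) oocyte libraries and 45 (9.49%) in both 2-cell libraries. Of the 425 lost genes, 108 (25.4%) did so in the 2 GV oocyte libraries and 115 (27.1%) in both 2-cell libraries. Of genes marked in all 4 libraries, 68.4% did so in both GV oocyte libraries and 59.1% in both 2-cell libraries. No peak in the 8 earlier libraries was seen for 187 gained genes (39.5%) and 138 lost genes (32.5%). Of 7261 coding genes with a peak in 1 or more of the 4 libraries, 44.8% carried a peak in both GV oocyte libraries, 33.1% in both 2-cell libraries and 26.8% in none of the 8 earlier libraries. These counts were not tested.

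Gained genes had a median length of 32307 bp, lost genes 21168 bp and genes marked in all 4 libraries 28839.5 bp. Each library of the stage held a single peak in 56.8% of gained and 66.6% of lost genes. In 105 gained and 93 lost genes the best −log10 q-value was below 5 in at least 1 of the 2 libraries of the stage. On the X chromosome 13 genes were gained and 11 lost, which is 2.74% of gained and 2.59% of lost genes. Of genes marked in at least 1 of the 4 libraries 2.56% lay on X, so both shares lay near that background. Of the X regions 3.08% were gained and 9.72% lost, against 4.78% and 7.3% of all regions. Autosomes reached like values, with 9.84% of regions lost on chromosome 1 and 3.04% gained on chromosome 5.

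Among 1107 genes outside the protein-coding class with a peak in at least 1 of the 4 libraries, 45 were gained, 120 lost and 254 marked in all 4. These are 4.07% gained and 10.8% lost, against 6.53% and 5.85% of protein-coding genes so marked. Long non-coding RNA genes made up 25 of the gained and 58 of the lost ones, and pseudogenes 17 and 48. Of marked long non-coding RNA genes 4.27% were gained and 9.9% lost, and of marked pseudogenes 4.18% and 11.8%. The long non-coding RNA genes Malat1, Neat1 and Xist, which overlaps its antisense gene Tsix, were marked in all 4 libraries. Krt8-ps, a pseudogene of the keratin Krt8, was called gained, but it lies inside the gained gene Nlrp4e, so its peaks cannot be given to one of them. The assignment of reads that also match Krt8 is not given in the sources used here. Malat1, Neat1, Xist, Tsix, Krt8-ps and Nlrp4e were chosen after their values were seen.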
